A study of Homo sapiens with 18 samples.

Results

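The genes described here are the inflammatory cytokines and chemokines IL6, IL8, CSF2, CXCL1, CXCL2, CXCL3, CCL2, LIF and IL1B. These 9 symbols were chosen by name as secreted mediators of inflammation, and 8 of them have a value among the 13141 genes measured. Earlier results of these data were known at the choice, so counts of members set beside the share of all genes are descriptions. IL1B was not analysed here. The cells were 786-O, a human clear cell renal cell carcinoma line, and their RNA was read on 18 Illumina arrays (HumanHT-12 V4). In this line VHL, the tumour suppressor whose product marks hypoxia-inducible factor (HIF) for destruction, is lost. Cells labelled VHL-/- or VHL+/+ carried a scramble control shRNA (SCR), a PBRM1 shRNA or a KDM5C shRNA. PBRM1 is a subunit of the PBAF chromatin remodelling complex and KDM5C is a histone demethylase. This made 6 groups of 3 arrays, in which VHL+/+ stands for cells given VHL back. All cells grew untreated in the same serum-containing medium, and each shRNA was expressed stably from a single hairpin, so an effect of the hairpin cannot be told apart from an effect of its target. Whether the cells were clones or pools is not given in the sources used here. Nothing states that replicates came from separate cultures, so p-values measure only the spread between these arrays. Each group had its replicates 1 and 2 on chip 1 and its replicate 3 on chip 2, so the chip cannot be told apart from whatever else was particular to replicate 3.

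Signals are given as log2 values on the arrays' common scale, and a log2 difference of 1 is a doubling. PBRM1, the first target, read between 7.02 and 7.52 over all arrays. Its log2 difference between PBRM1 shRNA and SCR was -0.06 ± 0.12 (SE, adjusted p = 0.864) in VHL-/- cells and -0.15 ± 0.12 (adjusted p = 0.639) in VHL+/+ cells. The PBRM1 signal thus did not separate the arrays labelled PBRM1 shRNA from the arrays labelled SCR, and every direction given below for that shRNA rests on the labels. KDM5C was not analysed here. VHL read between 7.64 and 8.16 and was not called between the genotypes; whether its probes read the VHL that was given back was not tested. HIF targets followed the VHL labels: of 10 measured, 5, 7 and 7 were called lower in VHL+/+ cells with SCR, PBRM1 shRNA and KDM5C shRNA. Of all genes 0.685%, 0.510% and 0.563% were called lower in these comparisons. The renal epithelial markers PAX8, KRT8 and KRT19 had mean signals above those of 66.8%, 85.3% and 89.6% of all genes, whereas CDH16, a cadherin of the kidney tubule, was above only 20.1%. Of 11 leukocyte markers 7 were measured and none was called in any comparison. The 6 other than CD68 each exceeded at most 29.3% of genes. Arrays of 1 group correlated at 0.976 to 0.995, no 2 arrays were identical, and 3130 genes differed between the chips.

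Cytokine genes of this kind are held low in resting cells and are switched on together when NF-kB enters the nucleus, with AP-1 and C/EBP factors bound nearby. Their messages carry AU-rich elements and are short-lived, so their levels move quickly. IL6 and LIF signal through receptors that share the IL6ST chain, CSF2 (GM-CSF) supports myeloid cells, IL8 (CXCL8) and CXCL1 to CXCL3 draw neutrophils through CXCR1 and CXCR2, and CCL2 draws monocytes through CCR2. Renal carcinoma lines are known to secrete several of them.

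The bases just before the start of transcription are shown for IL6, IL8, CSF2, CXCL1 and CXCL2, on which many of the comparisons turn, and for CXCL3, the close relative of CXCL1 and CXCL2. Those of CCL2 and LIF are not shown. The sequences come from RefSeq on GRCh38.p14, whose table matched 7 of the 9 symbols, with IL8 listed as CXCL8. Each run covers the 150 bases before the start, read in the direction of transcription. Capitals mark the kappaB-like letters GGNNTTTCC on either strand. The windows lie at chr7:22727050-22727199 (plus strand, IL6), chr4:73740419-73740568 (plus, IL8), chr5:132073639-132073788 (plus, CSF2), chr4:73869243-73869392 (plus, CXCL1), chr4:74099196-74099345 (minus, CXCL2) and chr4:74038690-74038839 (minus, CXCL3).
IL6: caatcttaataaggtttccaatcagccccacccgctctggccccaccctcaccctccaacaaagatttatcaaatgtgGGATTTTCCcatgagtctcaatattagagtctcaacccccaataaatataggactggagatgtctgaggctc
IL8: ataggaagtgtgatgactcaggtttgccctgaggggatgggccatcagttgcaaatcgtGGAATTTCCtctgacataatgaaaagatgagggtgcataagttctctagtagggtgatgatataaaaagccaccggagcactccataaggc
CSF2: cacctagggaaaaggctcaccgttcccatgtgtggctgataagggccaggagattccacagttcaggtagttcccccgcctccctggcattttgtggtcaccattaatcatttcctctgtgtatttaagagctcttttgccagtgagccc
CXCL1: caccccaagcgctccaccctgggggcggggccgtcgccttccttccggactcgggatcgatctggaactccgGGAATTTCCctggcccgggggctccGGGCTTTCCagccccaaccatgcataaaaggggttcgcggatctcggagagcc
CXCL2: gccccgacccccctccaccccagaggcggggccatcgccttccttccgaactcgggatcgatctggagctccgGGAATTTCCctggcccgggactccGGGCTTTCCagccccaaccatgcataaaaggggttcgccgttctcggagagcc
CXCL3: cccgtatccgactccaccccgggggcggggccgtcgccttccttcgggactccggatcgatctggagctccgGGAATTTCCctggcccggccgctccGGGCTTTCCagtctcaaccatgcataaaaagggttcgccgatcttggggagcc

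The kappaB-like letters stood once before IL6, at -72 to -64, and once before IL8, at -91 to -83. CXCL1, CXCL2 and CXCL3 each held 2 matches, of which the nearer stood at -53 to -45 in all of these 3. In all, 5 of 7 members held a match in the window of 250 bases before to 50 bases after the start, against 6.26% of 35116 windows of all genes. CSF2 and IL1B held none, which says only that these letters are not in this window. The AP-1 letters TGANTCA were found before IL8 alone, at -137 to -131, and in 7.71% of all windows. The C/EBP-like letters TTGCNNAA were found before IL6, CXCL2 and IL1B and in 10.5% of all windows. The hypoxia response core ACGTG was found in none of the 7 windows and in 21.4% of all windows. Between them CXCL1, CXCL2 and CXCL3 share a run of 23 bases around the farther match, and CXCL2 and CXCL3 share 37. A match of letters is a description and does not show that a factor binds there.

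The signals of IL6, a cytokine that acts through STAT3, are given for replicates 1, 2 and 3 in turn, the third being on chip 2. In VHL-/- cells IL6 read 11.95, 11.92 and 10.75 with SCR, 10.28, 10.17 and 8.46 with PBRM1 shRNA, and 10.47, 10.30 and 9.02 with KDM5C shRNA. In VHL+/+ cells IL6 read 9.06, 8.95 and 9.81 with SCR, 8.76, 7.87 and 7.85 with PBRM1 shRNA, and 8.00, 8.90 and 9.27 with KDM5C shRNA. All 3 arrays of VHL-/- SCR cells lay above the other 15 arrays. From the highest mean to the lowest, the groups were VHL-/- SCR (11.54 ± 0.68, SD, n = 3), VHL-/- KDM5C shRNA (9.93 ± 0.79), VHL-/- PBRM1 shRNA (9.63 ± 1.02), VHL+/+ SCR (9.27 ± 0.46), VHL+/+ KDM5C shRNA (8.72 ± 0.66) and VHL+/+ PBRM1 shRNA (8.16 ± 0.52). Each neighbouring pair below the first overlapped in its arrays.

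IL8, the main neutrophil-attracting chemokine of the set, varied more from array to array. IL8 read 13.39, 13.30 and 12.57 in VHL-/- SCR cells, 12.33, 12.26 and 9.98 with PBRM1 shRNA, and 13.00, 12.56 and 11.49 with KDM5C shRNA. The VHL+/+ arrays gave 9.98, 9.81 and 12.24 with SCR, 9.90, 8.72 and 10.35 with PBRM1 shRNA, and 8.68, 9.85 and 11.62 with KDM5C shRNA. On chip 1 every VHL-/- array lay above every VHL+/+ array, whereas on chip 2 the VHL+/+ SCR array (12.24) exceeded both VHL-/- shRNA arrays. Group means ran from 13.09 ± 0.45 (SD, n = 3) in VHL-/- SCR cells to 9.66 ± 0.85 in VHL+/+ PBRM1 shRNA cells, and all neighbours in that order overlapped.

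CSF2 encodes a growth factor of granulocytes and macrophages. Its VHL-/- arrays read 10.34, 10.42 and 9.38 with SCR, 8.75, 8.67 and 7.76 with PBRM1 shRNA, and 10.73, 10.11 and 8.47 with KDM5C shRNA. Its VHL+/+ arrays read 7.46, 7.38 and 8.30 with SCR, 7.84, 7.17 and 7.12 with PBRM1 shRNA, and 7.17, 7.95 and 8.30 with KDM5C shRNA. The KDM5C shRNA arrays of VHL-/- cells thus overlapped with SCR, whereas the PBRM1 shRNA arrays lay below it. Group means ran from 10.05 ± 0.58 (SD, n = 3) in VHL-/- SCR cells to 7.38 ± 0.40 in VHL+/+ PBRM1 shRNA cells, with every neighbouring pair overlapping.

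CXCL1, a neutrophil attractant like IL8, behaved in much the same way on single arrays. Its VHL-/- arrays read 10.38, 10.07 and 10.21 with SCR, 9.30, 9.10 and 8.14 with PBRM1 shRNA, and 10.90, 9.76 and 9.49 with KDM5C shRNA. Its VHL+/+ arrays read 8.06, 7.96 and 10.18 with SCR, 7.77, 7.22 and 9.10 with PBRM1 shRNA, and 7.14, 7.86 and 10.21 with KDM5C shRNA. In each VHL+/+ group the chip 2 array stood above both others.

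For CXCL2 the VHL-/- arrays read 8.34, 8.66 and 8.69 with SCR, 7.71, 8.08 and 7.04 with PBRM1 shRNA, and 8.51, 8.21 and 8.00 with KDM5C shRNA. The VHL+/+ arrays of CXCL2 read 7.29, 6.99 and 8.74 with SCR, 7.17, 6.94 and 7.50 with PBRM1 shRNA, and 6.83, 7.16 and 8.29 with KDM5C shRNA. The chip 2 array was again the highest of each VHL+/+ group. CXCL3 showed no such spread: over all 18 arrays its lowest value was 6.58 and its highest 6.90, and its mean signal exceeded that of 12.05% of genes.

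CCL2, the monocyte attractant, read 10.14, 9.99 and 10.21 in VHL-/- SCR cells, 9.17, 9.34 and 7.91 with PBRM1 shRNA, and 9.87, 9.43 and 8.96 with KDM5C shRNA. With VHL restored CCL2 read 8.55, 8.31 and 9.65 with SCR, 8.14, 8.09 and 7.69 with PBRM1 shRNA, and 7.60, 8.18 and 8.30 with KDM5C shRNA. As for IL6, the VHL-/- SCR arrays lay above all other arrays of the series. LIF, the other ligand that uses IL6ST, stayed between 7.19 and 7.76 on all arrays.

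**Figure D1:**
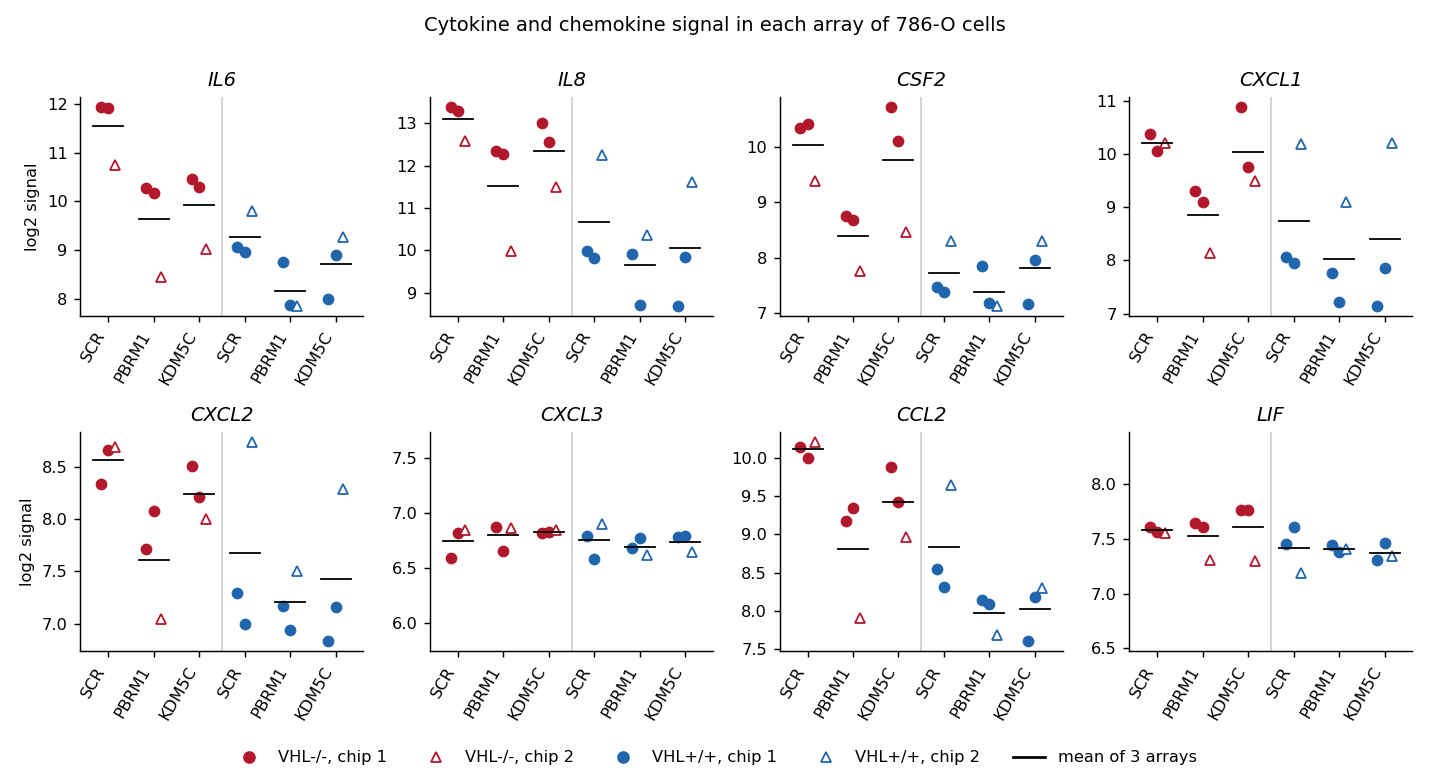
Log2 signal of the 8 measured genes (1 panel each, axes of different range) on each of 18 arrays, by group, with the shRNA named on the x axis. Filled circles are chip 1 and open triangles chip 2, red is VHL-/- and blue VHL+/+, and bars are means of 3 arrays; the open blue triangles of IL8, CXCL1 and CXCL2 stand above the filled blue circles in every VHL+/+ group, while CXCL3 and LIF stay flat.

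The comparison of VHL+/+ with VHL-/- cells asked which of these genes respond to restored VHL, with each shRNA in turn. With SCR, IL6 fell 4.80-fold and CSF2 fell 5.03-fold when VHL was present. A gene was called at an adjusted p under 0.05 and a change of at least 1.5-fold in limma, with terms for group and chip and adjustment over all 13141 genes. By this rule 2 of 8 members were called lower, against 0.685% of all genes. No member was called higher in this or any other comparison. The log2 change was -2.26 ± 0.46 (SE, adjusted p = 0.0116) for IL6 and -2.33 ± 0.45 (adjusted p = 0.00861) for CSF2. IL8 had a change of similar size, -2.41, with a larger error of 0.77 and an adjusted p of 0.111. CXCL1 (-1.48, adjusted p = 0.264), CXCL2 (-0.89, adjusted p = 0.240) and CCL2 (-1.28, adjusted p = 0.0668) were not called, nor were CXCL3 (0.01) and LIF (-0.16). The members' median log2 change was -1.38, where that of all genes was 0.00. The VHL+/+ arrays of IL6, IL8, CSF2 and CCL2 lay wholly below the VHL-/- arrays, which is 4 of 8 members against 8.46% of all genes. An exact two-sided permutation test of 3 arrays against 3 cannot give a p under 0.1, and IL6 and CSF2 gave 0.1.

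With PBRM1 shRNA no member was called lower in VHL+/+ cells, against 0.510% of all genes, and 4 of 8 had an unadjusted p under 0.05 in limma. IL6 differed by -1.47 ± 0.46 (adjusted p = 0.117) and IL8 by -1.87 ± 0.77 (adjusted p = 0.283) on the log2 scale. None of the 8 had VHL+/+ arrays wholly below its VHL-/- arrays, against 6.59% of all genes. The median over the members was -0.83.

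With KDM5C shRNA, CSF2 fell 3.90-fold and CCL2 fell 2.63-fold in VHL+/+ cells, and these were the 2 members called lower, against 0.563% of all genes. Their log2 changes were -1.96 ± 0.45 (adjusted p = 0.0244) and -1.39 ± 0.36 (adjusted p = 0.0471). IL6 (-1.21, adjusted p = 0.208), IL8 (-2.30, adjusted p = 0.149) and CXCL1 (-1.64, adjusted p = 0.221) had wide intervals that still lay below 0. The arrays of CSF2, CCL2 and CXCL3 did not overlap, which is 3 of 8 members against 6.45% of all genes, although CXCL3 differed by only -0.09. The median over the members was -1.30. These 3 VHL comparisons share no arrays.

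With KDM5C shRNA both calls were lost without a chip term (adjusted p = 0.0808 for CSF2 and 0.104 for CCL2), with trend and robust moderation (0.0785 and 0.111) and with only the arrays of the comparison (0.205 and 0.0924). CCL2 lost its call there with the replicate block too (0.0627). Leaving out single arrays also ended several calls. In the SCR comparison CSF2 lost its call without replicate 1 of VHL+/+ SCR (adjusted p = 0.0586), and IL6 lost it without replicate 1 (0.0744) or 2 (0.0570) of VHL+/+ SCR or replicate 1 (0.0659) or 2 (0.0603) of VHL-/- SCR. In the KDM5C shRNA comparison CSF2 lost its call without replicate 1 or 2 of either genotype's KDM5C shRNA group, with adjusted p of 0.0755 to 0.125, and CCL2 lost it in 13 of the 18 fits that left out 1 array. Without VHL-/- PBRM1 shRNA replicate 3, IL6 (-1.97, adjusted p = 0.0361) and CCL2 (-1.32, adjusted p = 0.0456) were called lower with PBRM1 shRNA. Without that array or without VHL+/+ SCR replicate 3, IL8 and CCL2 joined IL6 and CSF2 in the SCR comparison.

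**Figure D2:**
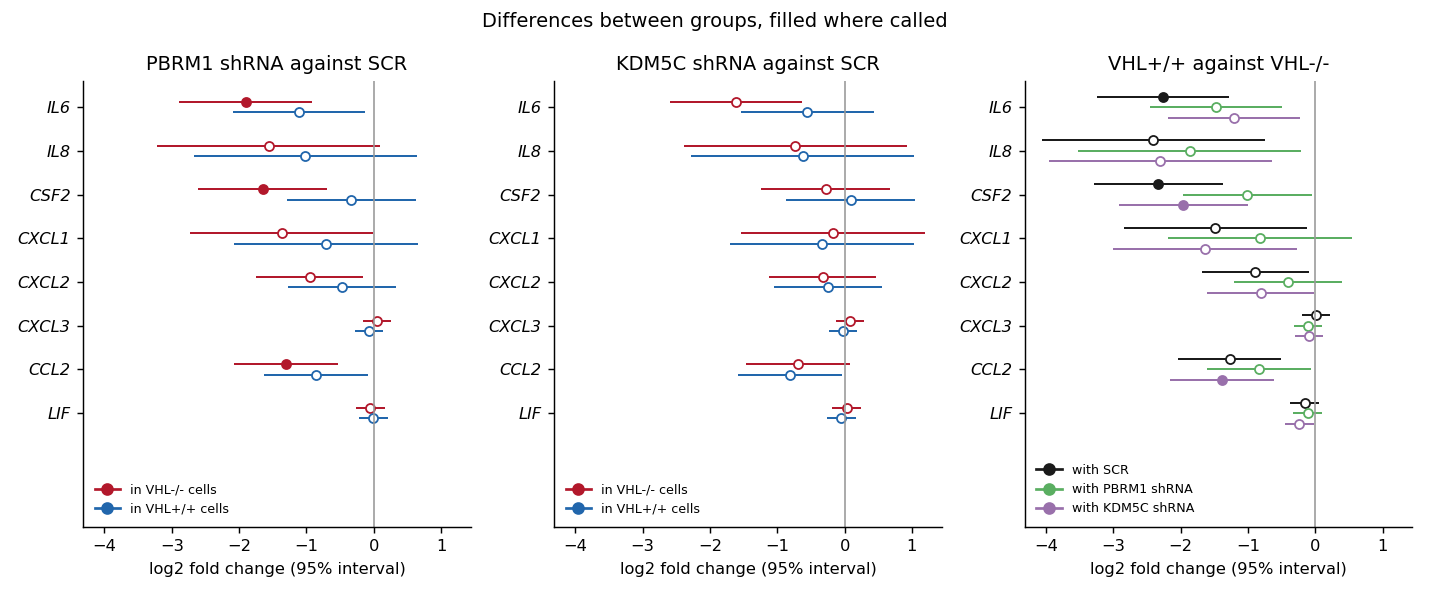
Log2 fold change of each gene with its 95% confidence interval (limma, group and chip terms) for PBRM1 shRNA against SCR, KDM5C shRNA against SCR and VHL+/+ against VHL-/- cells. Filled points are called, open points are not; in every panel the intervals of IL8 and CXCL1 are the widest and those of CXCL3 and LIF the narrowest.

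The size of the VHL difference depended on the chip. Within chip 1, where each group has 2 arrays, the same 6 genes (IL6, IL8, CSF2, CXCL1, CXCL2 and CCL2) were called lower in VHL+/+ cells in each of the 3 comparisons. That is 6 of 8 members against 1.14% of all genes with SCR, 0.624% with PBRM1 shRNA and 0.746% with KDM5C shRNA. With SCR the chip 1 log2 differences were -2.92 for IL6, -3.45 for IL8, -2.96 for CSF2, -2.21 for CXCL1, -1.36 for CXCL2 and -1.63 for CCL2. On chip 2, with 1 array a group and therefore no test, the same differences were -0.95, -0.33, -1.08, -0.03, 0.05 and -0.56. With KDM5C shRNA, IL8 went from -3.52 on chip 1 to 0.13 on chip 2 and CXCL1 from -2.83 to 0.72. With PBRM1 shRNA, IL8 went from -2.99 to 0.37 and CXCL1 from -1.71 to 0.95.

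Most HIF targets were still lower in VHL+/+ cells on chip 2. With SCR, ADM, which encodes adrenomedullin, differed by -1.99 on chip 1 and -1.37 on chip 2, and the glucose transporter SLC2A1 by -0.93 and -1.28. NDRG1 differed by -1.72 and -1.67, and the cyclin CCND1 by -1.66 and -1.50. Of 10 HIF targets, 9 were lower in the VHL+/+ array of chip 2 with each shRNA, where 6, 4 and 3 of the 8 members were lower with SCR, PBRM1 shRNA and KDM5C shRNA.

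**Figure D3:**
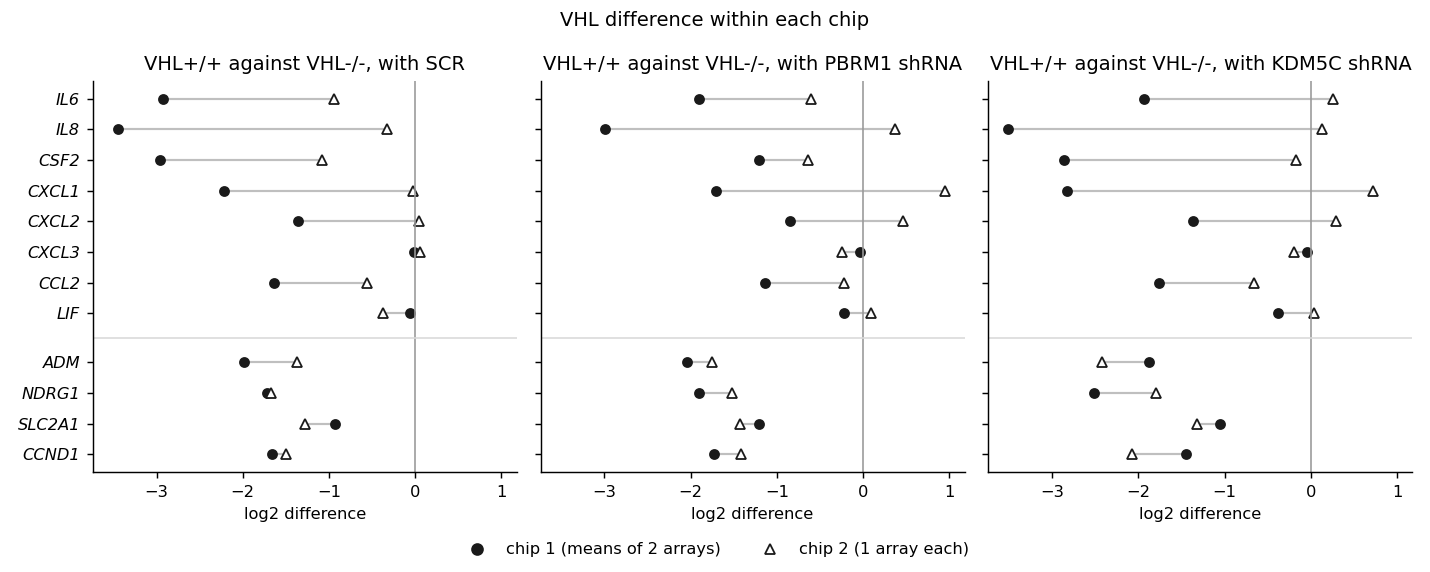
Log2 difference between VHL+/+ and VHL-/- cells within chip 1 (circles, means of 2 arrays) and chip 2 (triangles, 1 array each), with SCR, PBRM1 shRNA and KDM5C shRNA, for the 8 measured cytokine genes above the line and 4 HIF targets below it. The triangles of IL8, CXCL1 and CXCL2 lie between -0.33 and 0.95, while those of ADM, NDRG1, SLC2A1 and CCND1 stay at -1.28 or lower.

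The difference between chips was tested in a fit with a chip term for each VHL background, added after the values were seen. The VHL difference was nearer to 0 or above it on chip 2 for CXCL1 by 2.80 ± 0.36 (SE, log2, adjusted p = 0.00737), for IL8 by 3.38 ± 0.45 (adjusted p = 0.00737), for IL6 by 1.82 ± 0.34 (adjusted p = 0.0474) and for CXCL2 by 1.46 ± 0.28 (adjusted p = 0.0474). These are 4 of 8 members among 27 genes that passed, 0.205% of all genes, and CXCL1 and IL8 ranked 2 and 3 by p. CSF2 (1.71, adjusted p = 0.0583) and CCL2 (1.03, adjusted p = 0.435) did not pass. For IL8 the sides of that difference were -1.46 from chip 1 to chip 2 in VHL-/- cells and 1.92 in VHL+/+ cells. Ahead of all stood SOD2 (1.86 ± 0.21), a mitochondrial superoxide dismutase induced by NF-kB, and the list also held the kinase MAP3K8 (1.01) and NFKBIZ (0.61), an atypical member of the IkB family. It also held the mitotic genes AURKA (-0.64), TPX2 (-0.84), KIF11 (-0.59) and UBE2C (-0.53), whose difference had the opposite sign. The HIF target EGLN3 (-0.63, adjusted p = 0.0474) was on the list as well, with a VHL difference that was lower on chip 2 than on chip 1. Growth state, passage and handling of replicate 3 were not tested.

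The comparison of PBRM1 shRNA with SCR asked what suppression of this remodeller does to the same genes. On the arrays labelled PBRM1 shRNA in VHL-/- cells, IL6 fell 3.75-fold, CSF2 fell 3.14-fold and CCL2 fell 2.47-fold. These 3 of 8 members were called lower, against 0.890% of all genes. The log2 changes were -1.91 ± 0.46 (adjusted p = 0.0203) for IL6, -1.65 ± 0.45 (adjusted p = 0.0384) for CSF2 and -1.31 ± 0.36 (adjusted p = 0.0415) for CCL2. IL8 (-1.56, adjusted p = 0.306), CXCL1 (-1.37, adjusted p = 0.268) and CXCL2 (-0.95, adjusted p = 0.165) were not called, and CXCL3 (0.05) and LIF (-0.05) were near 0. All 6 other than CXCL3 and LIF had PBRM1 shRNA arrays wholly below the SCR arrays, that is 6 of 8 members against 10.3% of all genes. The members' median was -1.34.

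These 6 genes were lower with PBRM1 shRNA on both chips. On chip 1 the log2 differences were -1.71 for IL6, -1.05 for IL8, -1.67 for CSF2, -1.02 for CXCL1, -0.61 for CXCL2 and -0.81 for CCL2. On chip 2 they were -2.30, -2.59, -1.62, -2.07, -1.65 and -2.30. In a test within chip 1 alone 3 of 8 members were called lower, against 1.27% of all genes. With a chip term for each VHL background all 6 were called lower, against 0.959% of all genes, with adjusted p from 0.000596 for IL6 to 0.0197 for CXCL2; this fit was added after the values were seen. Other fits ended the calls. None of the 3 was called without a chip term (adjusted p = 0.0631 for IL6, 0.0976 for CSF2 and 0.0767 for CCL2) or with trend and robust moderation (0.0658, 0.104 and 0.0974). With the replicate block in place of the chip CSF2 (0.0510) and CCL2 (0.0557) lost their calls. In the fit with 1 chip term, the call of IL6 was lost without VHL-/- SCR replicate 1 (adjusted p = 0.0875) or 2 (0.0892) or without PBRM1 shRNA replicate 3 (0.0830). CSF2 lost its call in 7 of the 18 fits that left out 1 array, 6 of them leaving out an array of the comparison itself, and CCL2 in 8. Without PBRM1 shRNA replicate 3 the change of CCL2 was -0.81 (adjusted p = 0.162).

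In VHL+/+ cells with PBRM1 shRNA no member was called lower, against 0.304% of all genes, and 2 of 8 had an unadjusted p under 0.05 in limma. IL6 differed by -1.11 ± 0.46 (adjusted p = 0.247) and CCL2 by -0.86 ± 0.36 (adjusted p = 0.253). These were the 2 members whose arrays lay wholly below SCR, against 6.51% of all genes. IL8 (-1.02), CSF2 (-0.33), CXCL1 (-0.70) and CXCL2 (-0.47) had intervals that included 0. With a chip term for each VHL background IL6 alone was called lower (adjusted p = 0.0416), against 0.327% of all genes, and within chip 1 none was, against 0.274%.

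KDM5C shRNA was compared with SCR in the same way. In VHL-/- cells no member passed the call, against 0.654% of all genes called lower, and 1 had an unadjusted p under 0.05 in limma. This was IL6, at -1.61 ± 0.46 or 3.05-fold lower, whose adjusted p of 0.0541 missed the threshold. IL6 was called when any 1 of 4 other arrays was left out (VHL+/+ SCR replicate 3, VHL+/+ KDM5C shRNA replicate 1 or 3, or VHL-/- PBRM1 shRNA replicate 3), with adjusted p from 0.0273 to 0.0331. It was also the 1 member of 8 called within chip 1 (adjusted p = 0.00912), against 0.959% of all genes, and the 1 member called with a chip term for each VHL background (adjusted p = 0.00242), against 0.700%. The other differences were -0.73 for IL8, -0.28 for CSF2, -0.17 for CXCL1, -0.32 for CXCL2 and -0.69 for CCL2, each with an interval that included 0. IL6 and CCL2 were the 2 members with arrays wholly below SCR, against 8.20% of all genes, and the median over the members was -0.30.

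In VHL+/+ cells with KDM5C shRNA no member was called lower, against 0.426% of all genes, and the median was -0.29. CCL2 was the 1 member with an unadjusted p under 0.05, at -0.81 ± 0.36 (adjusted p = 0.236). Its arrays were also the only ones of the 8 members wholly below SCR, against 8.86% of all genes. IL6 (-0.55), IL8 (-0.62), CSF2 (0.09), CXCL1 (-0.33) and CXCL2 (-0.25) overlapped with SCR. Within chip 1 none was called, against 0.396% of all genes. In each background both shRNA comparisons use the same SCR arrays, which also enter the VHL comparison with SCR, so these values are given side by side only.

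No member was called in the direct comparisons between effects. The PBRM1 shRNA effect in VHL-/- minus that in VHL+/+ cells was called for 0 of 8 members and 0% of all genes in limma, with no member at an unadjusted p under 0.05. It was largest for CSF2, at -1.32 with a 95% interval from -2.65 to 0.02. For the KDM5C shRNA effect the count was again 0 members (0 at an unadjusted p under 0.05) and 0% of all genes, with IL6 at -1.06 and an interval from -2.43 to 0.31. Between PBRM1 shRNA and KDM5C shRNA the counts were 0 members and 0% of genes in VHL-/- cells, and 0 members and 0% in VHL+/+ cells, with 1 and 0 members at an unadjusted p under 0.05. CSF2 in VHL-/- cells was lower with PBRM1 than with KDM5C shRNA by 1.38 log2 units in the 18-array fit, with an interval of -2.32 to -0.43 (unadjusted p = 0.00698 in limma, adjusted p = 0.814). Within chip 1 this difference was -1.71 (adjusted p = 0.0382), the 1 member of 8 called, against 0.0761% of all genes. In the 18-array fit the intervals of IL6, IL8, CSF2, CXCL1 and CXCL2 leave room for differences of more than 2-fold. They therefore do not show that the backgrounds or the shRNAs act alike on these genes. The same holds for CCL2, except between the shRNAs in VHL+/+ cells, where its interval ran from -0.81 to 0.70. The intervals of CXCL3 and LIF were narrower and lay between -0.33 and 0.39.

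The rule for these genes asked for each array singly because their replicates were already known to spread widely. The spread within groups was large and is given as a description. After the group and chip terms the residual SD was 1.15 for IL8, which was rank 1 of 13141 genes, and 0.94 for CXCL1, rank 2. IL6 (0.67) ranked 6, CSF2 (0.66) ranked 8, CXCL2 (0.54) ranked 20 and CCL2 (0.52) ranked 23, where the median gene had 0.12. CXCL3 (0.11) and LIF (0.12) ranked 7167 and 6353. The residuals of the first 6 tended to move together, with exceptions mostly in CCL2. Over the 18 arrays, with 11 residual degrees of freedom, the 15 pairs among them had Pearson correlations of residuals from 0.75 (CSF2 and CCL2) to 0.98 (IL6 and IL8) and Spearman correlations from 0.72 to 0.98. Leaving out the 2 arrays farthest from the median of the first gene gave 0.73 to 0.97. The 13 pairs with CXCL3 or LIF ran from -0.44 to 0.47. These points share arrays, RNA and the chip by genotype pattern described above, and the 6 genes were set apart from the other 2 after their values were seen.

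**Figure D4:**
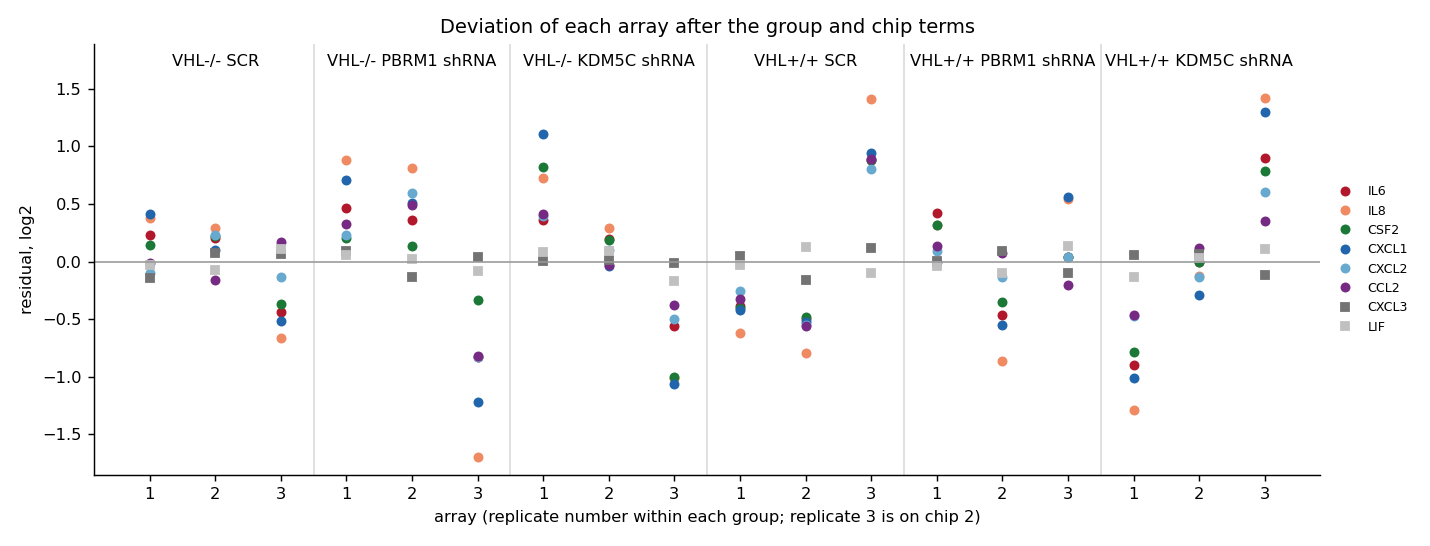
Residual of each gene (log2) on each of 18 arrays after the group and chip terms, by group and replicate number, with replicate 3 on chip 2. Coloured circles are the 6 genes with a wide spread, which lie on the same side of 0 on most arrays, down to -1.70 for IL8 in VHL-/- PBRM1 shRNA replicate 3; grey squares are CXCL3 and LIF, which stay near 0.

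The genes whose pattern over the 18 arrays was most like these, with the chip effect removed, were named by Pearson correlation as a description. For IL6 they were C1QTNF1 (0.96), MAP3K8 (0.95), C15ORF48 (0.95), IL8 (0.95) and MIR302C (0.95), as the array names it. For IL8 they were MAP3K8 (0.97), CXCL1 (0.96), MIR302C (0.96), ZC3H12A (0.95) and IL6 (0.95). CSF2 was most like MAP3K8 (0.95), SLC25A24 (0.95), MIR302C (0.94), PPP4R4 (0.94) and IL8 (0.93). MAP3K8, a kinase upstream of ERK and JNK that is itself held by NFKB1, thus appeared for all 3 genes. Ranked by Spearman correlation, CCL2 and MAP3K8 came first for IL6, CXCL1 for IL8 and MAP3K8 for CSF2. Without removal of the chip effect the first were C1QTNF1, MAP3K8 and MIR302C.

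Genes around the cytokines were taken from lists of receptors, regulators and related targets. Of the receptors and antagonists of these ligands 9 of 14 were measured. The 1 called was the chemokine receptor CXCR7, at -0.73 in VHL+/+ cells with PBRM1 shRNA (adjusted p = 0.000547), where 0.510% of all genes were called lower. Of 37 other secreted cytokines and growth factors 26 were measured. With PBRM1 shRNA 2 of them were called lower in VHL-/- cells, against 0.890% of all genes. They were the T cell attractants CCL5 (-0.85 ± 0.14, adjusted p = 0.00125) and CXCL10 (-0.60 ± 0.10, adjusted p = 0.00154). CCL5 was lower with KDM5C shRNA too (-0.78, adjusted p = 0.00254) and in VHL+/+ cells with SCR (-0.79, adjusted p = 0.00433). The EGFR ligand TGFA rose with KDM5C shRNA in VHL-/- cells (0.62, adjusted p = 0.0356) and fell in VHL+/+ cells carrying that shRNA (-0.87, adjusted p = 0.00779). The death ligand TNFSF10 fell in VHL+/+ cells with PBRM1 shRNA (-0.81, adjusted p = 0.0282) and KDM5C shRNA (-0.80, adjusted p = 0.0290). The median of these 26 genes lay between -0.10 and -0.03 in the 7 comparisons of 2 groups, near that of all genes, where the members' median lay between -1.38 and -0.29.

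Of the NF-kB pathway 30 of 31 genes were measured, with at most 2 called lower in a comparison and a median between -0.09 and -0.04. The count of 2 was with PBRM1 shRNA in VHL-/- cells, against 0.890% of all genes. In VHL-/- cells with PBRM1 shRNA the deubiquitinase TNFAIP3 fell (-0.82, adjusted p = 0.00434), as did IRAK2 (-1.11, adjusted p = 0.0194), a kinase of the IL1 and Toll-like receptors. TNFAIP3 fell with KDM5C shRNA as well (-0.71, adjusted p = 0.0126). MAP3K8 fell in VHL+/+ cells with SCR (-1.23, adjusted p = 0.0139) and KDM5C shRNA (-1.04, adjusted p = 0.0368). IKBKG, the regulatory subunit of the IkB kinase, was higher with KDM5C shRNA than with SCR in VHL+/+ cells (0.77, adjusted p = 0.000166). Of 24 measured genes for AP-1, C/EBP and STAT3 factors and their feedback, 3 were called lower in VHL+/+ cells with PBRM1 shRNA, against 0.510% of all genes. They were JUN (-0.73, adjusted p = 0.000815), FOSL1 (-0.61) and the phosphatase DUSP1 (-0.72). With KDM5C shRNA 1 was called lower, again JUN (-0.72, adjusted p = 0.000994), against 0.563% of all genes. No gene of that list was called between shRNA and SCR. Of 13 measured decay factors of AU-rich messages, 1 was called in 1 comparison, KDM5C shRNA against SCR in VHL+/+ cells. This was ZFP36L1 (-0.64, adjusted p = 0.0155), where 0.426% of all genes were called lower.

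Among 31 measured other genes that respond to NF-kB or inflammation, 6 were called lower and 1 higher in VHL-/- cells with PBRM1 shRNA. Of all genes 0.890% were called lower there and 1.81% either way. The lower ones included the urokinase PLAU (-1.38, adjusted p = 0.0243), the stress cytokine GDF15 (-1.36, adjusted p = 0.00262), the interleukin 7 receptor chain IL7R (-0.89, adjusted p = 7.12e-06), the kynureninase KYNU (-0.78, adjusted p = 0.0362) and the prostaglandin synthase PTGES (-0.65, adjusted p = 0.0174). The matrix protein TNC was higher (0.76), with a value of -0.02 on chip 2. IL7R fell in 5 of the 7 comparisons of 2 groups, and its largest change was -1.02 with KDM5C shRNA in VHL-/- cells. In VHL+/+ cells MMP7, a matrix metalloproteinase, rose with each shRNA (1.62 with SCR, 2.28 with PBRM1 shRNA and 1.89 with KDM5C shRNA), and the hormone STC1 fell (-1.36, -1.37 and -1.50). TNFAIP6 fell with KDM5C shRNA (-0.82, adjusted p = 0.0221). PTGES fell with PBRM1 shRNA and KDM5C shRNA in VHL+/+ cells (-0.74 and -0.71 against SCR). These lists were chosen with earlier results of these data known, and their medians, from -0.27 to -0.03 in this list, are descriptions.

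Among the HIF targets, CA12, EGLN3 and CCND1 were called both between the VHL labels and between an shRNA and SCR. CA12, a carbonic anhydrase, differed between VHL+/+ and VHL-/- cells by -1.47 with SCR, -1.19 with PBRM1 shRNA and -0.92 with KDM5C shRNA, and rose with KDM5C shRNA in VHL+/+ cells (0.92, adjusted p = 0.00772). EGLN3, a prolyl hydroxylase that acts on HIF, was lower in VHL+/+ cells with PBRM1 shRNA (-0.98) and KDM5C shRNA (-1.35) and higher with KDM5C shRNA in VHL-/- cells (0.80). CCND1 was the HIF target called in all 7 comparisons: it fell with VHL, with log2 changes of -1.61 to -1.65, and rose by 1.30 to 1.39 with either shRNA in either background. The arrays labelled PBRM1 shRNA and KDM5C shRNA thus differed from SCR in CCND1 on both chips, the smallest difference being 1.13. As CCND1 rose with either shRNA, it cannot tell these 2 labels apart and does not show that PBRM1 or KDM5C was suppressed. Of the fibroblast markers 3 of 6 were measured, COL1A1 and COL1A2 exceeded only 17.8% and 8.14% of genes, and LUM fell with each shRNA (-0.73 and -0.73 in VHL-/- cells, -0.89 and -0.86 in VHL+/+ cells). The summed linear signal of these 3 markers was 391 to 449 in VHL-/- SCR arrays and 319 to 352 in VHL-/- PBRM1 shRNA arrays. For the 7 leukocyte markers the sum was 1128 to 1217 in VHL-/- SCR arrays and 973 to 1161 in VHL-/- PBRM1 shRNA arrays. The part of either in the cytokine results was not tested.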

How the data were processed

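Total RNA of 18 samples labelled as 786-O was hybridised to Illumina HumanHT-12 V4 arrays. The deposited values are log2 intensities per gene. Per their methods, the authors read the arrays in GenomeStudio, corrected the background so that values stayed positive, took log2, quantile-normalized, used 0.05 as the detection limit for probes and took the mean where a gene had several. Whether the batch correction described for the heat maps entered these log2 values is not given in the sources used here. Averaging hides how far the probes of a gene differ, and cross-hybridisation between the related genes CXCL1, CXCL2 and CXCL3 was not tested. Depth does not apply to arrays; their number limits the precision.

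Groups came from the labels. limma 3.58.1 in R 4.3.3 was fitted to all 13141 genes with terms for 6 groups and 2 chips (11 residual degrees of freedom) and empirical Bayes moderation, with Benjamini-Hochberg adjustment within each of 11 contrasts. The fit was tested on simulated data. Genes were called at an adjusted p under 0.05 and a change of at least 1.5-fold; the methods text gives 2. Single members were also compared by an exact permutation test. The 8 members with values are described in every comparison; of the lists, up to 25 called genes with the largest change are named, CXCL10, ZFP36L1, FOSL1, DUSP1, and the marker LUM were added after their values were seen, and the 5 genes most like IL6, IL8 and CSF2 are given. Some genes that this rule would name are not reported here. The members and lists were chosen with earlier results of these data known. Motifs were searched with Python 3.11.15 in RefSeq start windows. Alternatives changed the chip term, arrays, thresholds, scaling, moderation and weights, and left out each array.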

Additional observations from a re-analysis of the deposited data

Results flagged for a closer look

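For 4 of the measured genes the difference between VHL+/+ and VHL-/- cells was not the same on the 2 chips by a test of that difference over all genes. On chip 2 minus chip 1 the VHL difference was 2.80 higher for CXCL1 (log2, adjusted p = 0.00737), 3.38 higher for IL8 (adjusted p = 0.00737), 1.82 higher for IL6 (adjusted p = 0.0474) and 1.46 higher for CXCL2 (adjusted p = 0.0474). This test was added after the values had been seen, and chip 2 holds 1 array of each group, so the chip and whatever else marks replicate 3 cannot be told apart. Groups of 3 arrays are too small to call a single array an outlier. In the fit with array weights, estimated over all genes, the lowest weight was that of VHL-/- PBRM1 shRNA replicate 3 (0.47). The highest was that of VHL+/+ PBRM1 shRNA replicate 2 (2.02). Without the array of lowest weight, IL6, CSF2 and CCL2 lost their calls for PBRM1 shRNA in VHL-/- cells (limma, adjusted p = 0.0830, 0.104 and 0.162).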

How the results depend on the processing

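No called value of a member changed sign in any alternative fit. Of 2501 member values under alternatives, 2384 kept their side of the threshold, 56 lost a call and 61 gained one. Most of the 2501 belong to members not called in the 18-array fit. All 56 losses fell on the few member calls of that fit (3, 2 and 2, given below). The 2384 therefore do not measure how stable those calls were. The sign changed for 99 values, none of them called, the largest of which was 0.83 in size in the 18-array fit. These counts leave out the differences within chip 2 alone, where larger uncalled VHL differences changed sign. Against the 18-array fit, IL8 went from -2.30 to 0.13 with KDM5C shRNA and from -1.87 to 0.37 with PBRM1 shRNA. With KDM5C shRNA, CXCL1 went from -1.64 to 0.72 and IL6 from -1.21 to 0.26. Counts of members called are given with the share of all genes called lower in the same fit in parentheses. For PBRM1 shRNA in VHL-/- cells, 3 as reported, the count was 0 without a chip term (0.578%), 0 with trend and robust moderation (0.875%), 6 with only the arrays of the contrast (1.1%), 6 with a chip term in each VHL background (0.959%), and 6 without the VHL+/+ arrays of chip 2 (0.959%). For VHL with KDM5C shRNA, 2 as reported, it was 0 without a chip term (0.297%), 0 with trend and robust moderation (0.548%), 0 with only the arrays of the contrast (0.251%), 1 with array weights (0.533%), 6 within chip 1 (0.746%) and 6 without the VHL+/+ arrays of chip 2 (0.548%). For VHL with SCR, 2 as reported, it was 5 with only the arrays of the contrast (0.769%), 6 within chip 1 (1.14%) and 6 without the VHL+/+ arrays of chip 2 (0.921%). For VHL with PBRM1 shRNA, 0 as reported, it was 2 with array weights (0.578%), 6 within chip 1 (0.624%) and 3 without the VHL+/+ arrays of chip 2 (0.472%). For KDM5C shRNA in VHL-/- cells, 0 as reported, it was 2 with only the arrays of the contrast (0.700%) and 1 each without the dimmest 25% of genes (0.883%), within chip 1 (0.959%), with a chip term in each VHL background (0.700%) and without the VHL+/+ arrays of chip 2 (0.677%). It was 1 for KDM5C shRNA in VHL+/+ cells with only the arrays of the contrast (0.548%), 1 for PBRM1 shRNA in VHL+/+ cells with array weights (0.502%) or with a chip term in each VHL background (0.327%), and 1 for PBRM1 against KDM5C shRNA in VHL-/- cells within chip 1 (0.0761%). The cause of these changes was not tested. Counts within chip 1, with a chip term in each background and without the VHL+/+ arrays of chip 2 were chosen after seeing the data.

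When single arrays were left out, 0 to 3 members were called for PBRM1 shRNA in VHL-/- cells, 0 to 1 for KDM5C shRNA in VHL-/- cells, 0 to 4 for VHL with SCR, 0 to 2 for VHL with PBRM1 shRNA and 0 to 2 for VHL with KDM5C shRNA, and 0 to 0 in the other comparisons. CCL2 in VHL+/+ against VHL-/- cells with KDM5C shRNA lost its call in 13 of 18 such fits, with adjusted p up to 0.192, and CCL2 with PBRM1 shRNA in VHL-/- cells in 8.

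With a replicate block, the replicate number in place of the chip, 1 member was called for PBRM1 shRNA in VHL-/- cells (0.860% of all genes) and 1 for VHL with KDM5C shRNA (0.548%), and the other counts did not move. Same-numbered arrays mostly deviated together before the chip effect was removed (correlations of -0.17 to 0.72, over 0.1 in 18 of 21 pairs). After it the correlations were -0.58 to 0.15, over 0.1 in 2 of 21. Removing the chip effect also takes out what the replicate 3 arrays share over all groups. The check therefore cannot show whether same-numbered arrays were pairs, and they were not taken as pairs.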
